A study of Mus musculus with 1753 samples.

Results

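A set of 10 genes that tune Wnt signalling were followed through the fibroblasts and mural cells of mouse skeletal muscle. They were Wif1, Sfrp1, Sfrp2, Sfrp4, Sfrp5, Dkk2, Dkk3, Frzb, Dact2 and Lgr5, chosen by symbol, and all 10 were found among the 46517 genes of the table. Single cells had been sorted from hindlimb muscle of adult male mice of 10 to 20 weeks, as positive for PDGFRα, PDGFRβ or a fluorescent reporter and negative for the endothelial protein CD31. The labels described 1753 cells in 10 clusters under 5 strain labels. C57BL6 is an inbred strain, and its cells were taken with antibodies. Acta2GFP, Cspg4dsRED and PdgfrbGFP carry GFP or dsRED driven by regulatory sequence of the gene in the name, so the reporter decides which cells reach the plate. The label PdgfraGFP - PdgfrbGFP pool, called the pool here, joins cells of a Pdgfra and a Pdgfrb reporter line that the labels do not separate. No group had been treated. The labels name no animal, so the strain label stood for the replicate. The p-values therefore measure the spread between these labels, which also differ in reporter, plate and depth. An extraction label names heart, whereas the tissue label and the study give skeletal muscle.

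Wnt proteins are secreted signals that bind Frizzled receptors with LRP5 or LRP6 co-receptors, and their canonical branch stabilises β-catenin, which acts with Tcf and Lef factors on target genes. Wif1 and the secreted frizzled-related proteins, to which Frzb also belongs, bind Wnt proteins outside the cell. Dickkopf proteins such as Dkk2 act on LRP co-receptors, and Dkk3 is a divergent relative whose role in this pathway is less settled. Dact2 and Lgr5 are not secreted. Dact2 is a Dishevelled-binding protein inside the cell, and Lgr5 is a membrane receptor for R-spondins, which enhance Wnt signalling. In muscle, fibroblasts of the connective tissue and the Wnt signals around them take part in growth and repair.

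Promoters of Wif1, Sfrp2 and Dkk2 are printed because their genes carried the clearest patterns below, Wif1 in cluster 2 and Sfrp2 with Dkk2 in cluster 5. Each window is RefSeq sequence of GRCm38.p6, from 250 bases before to 50 bases after the annotated start, and capitals mark TATAAA on either strand.
Wif1, chr10:121033754-121034053, plus strand: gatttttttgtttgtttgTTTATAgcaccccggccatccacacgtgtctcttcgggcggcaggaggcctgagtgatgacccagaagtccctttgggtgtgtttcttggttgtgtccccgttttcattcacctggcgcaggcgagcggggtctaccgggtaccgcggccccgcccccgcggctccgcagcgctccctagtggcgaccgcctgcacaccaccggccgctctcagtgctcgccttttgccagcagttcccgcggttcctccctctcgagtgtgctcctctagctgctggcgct
Sfrp2, chr3:83766071-83766370, plus strand: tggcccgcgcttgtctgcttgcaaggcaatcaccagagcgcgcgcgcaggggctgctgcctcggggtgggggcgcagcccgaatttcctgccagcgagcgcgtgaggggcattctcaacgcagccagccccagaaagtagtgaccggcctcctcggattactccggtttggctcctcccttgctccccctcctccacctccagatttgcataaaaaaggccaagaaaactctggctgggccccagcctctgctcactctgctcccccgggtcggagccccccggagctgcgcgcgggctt
Dkk2, chr3:132085042-132085341, plus strand: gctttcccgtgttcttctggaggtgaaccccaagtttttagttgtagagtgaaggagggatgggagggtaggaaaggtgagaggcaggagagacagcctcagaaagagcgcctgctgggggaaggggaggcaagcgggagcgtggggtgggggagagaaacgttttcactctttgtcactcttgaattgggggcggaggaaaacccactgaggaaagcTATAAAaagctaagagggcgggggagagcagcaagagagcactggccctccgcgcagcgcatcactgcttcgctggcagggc
Windows were matched for 6 genes, also Sfrp5, Frzb and Dact2. TATAAA was found in Wif1, reading on the minus strand at -232, and in Dkk2, on the plus strand at -32, counted from the start site to the leftmost base. It was found in 13.6% of the 32534 windows of that length. The core CTTTGAA or CTTTGAT, to which Tcf and Lef factors bind, occurred on either strand in 8.66% of all windows and in 0 of these 6. GGGCGG, a GC box, occurred in 35.9% of all windows, and in 2 places each in Wif1 and Dkk2 but nowhere in the Sfrp2 window.

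The 10 genes differed in where they were read and in how many cells. Levels below are read counts per cell scaled to 500000 counts, averaged over the cells of a cluster within a strain label and then over the labels that gave 3 or more cells. A cell was called positive at 100 or more scaled counts. Cells held a median of 258251 counts, and the median ranged from 121646 in Cspg4dsRED to 367563 in the pool. Clusters 2 and 9 are the perimysial fibroblasts of the study, which lie around bundles of fibres, cluster 4 is paramysial, clusters 1, 3, 5, 6 and 8 are called endomysial, cluster 10 has no class name, and cluster 7 is mural. Endomysium lies around single fibres, but the endomysial class was thought to hold fibroadipogenic progenitors and perivascular fibroblasts as well. Summed marker levels set the mural and perimysial classes apart, but the paramysial sum did not set cluster 4 apart from the perimysial clusters. The summed level of 5 fibroblast markers was 6140 to 12093 in the fibroblast clusters and 438 in cluster 7, and that of 6 mural markers was 18.3 to 416 and 9921. The 6 perimysial markers summed to 8447 and 6214 in clusters 2 and 9 and to 95.2 to 846 in the endomysial clusters, with 3573 in cluster 4. The 4 paramysial markers summed to 5838 in cluster 4 (4622 to 6937 over labels), 5596 in cluster 2 (3779 to 7821) and 4967 in cluster 9, so they did not separate cluster 4 from the perimysial clusters. The clusters had been made from these same counts, so a difference between them describes the clusters and is not independent evidence for them. In bulk sums, fewer positive cells and less RNA per cell cannot be told apart, and both are given where they differ.

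**Figure D1:**
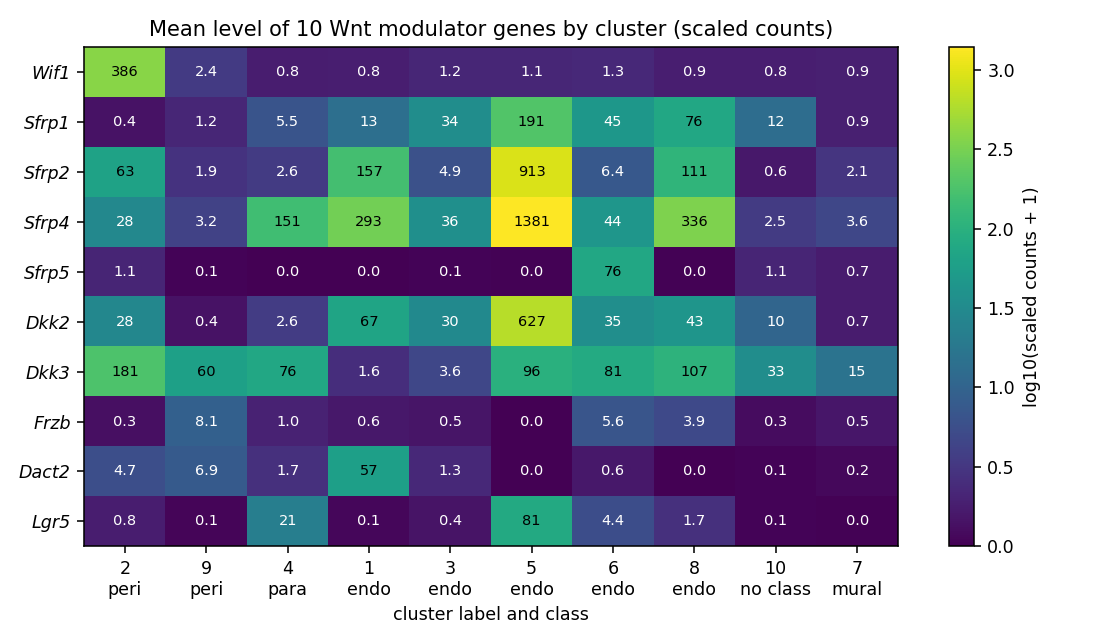
Mean level of each gene (rows) in each cluster (columns, ordered by class) in scaled counts, averaged over strain labels, with the colour on a log10 scale after adding 1 and the printed numbers rounded. Wif1 is bright in cluster 2 alone, and cluster 5 holds the highest levels of Sfrp1, Sfrp2, Sfrp4, Dkk2 and Lgr5.

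Wif1 (ENSMUSG00000020218, chromosome 10, 121033960 to 121100650, plus strand, GRCm38) encodes a secreted protein that binds Wnt ligands directly, and it marked cluster 2. Its level there was 110.1 in Acta2GFP, 219.8 in C57BL6, 783.2 in Cspg4dsRED, 236.8 in the pool and 579.4 in PdgfrbGFP, or 386 ± 283 (SD, n = 5 labels). In the other 9 clusters the mean level lay between 0.77 and 2.41, and the highest single value of a label was 7.13, in cluster 9 of the pool. Every label of cluster 2 thus exceeded every label elsewhere, and 98.5% of all scaled Wif1 counts came from cluster 2. Positive cells numbered 118 of 269 in cluster 2 and 0 of 1484 in all others, which allows a share of up to 0.202% there.

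Within cluster 2 Wif1 was either high or nearly absent. Of its 269 cells, 145 had fewer than 10 scaled counts, 6 had 10 to 100, and 118 had 100 or more, with a median of 695 and a highest value of 2764 among the latter. Lowering the limit to 30 scaled counts changed the mean share of positive cells from 46.4% ± 14.3 to 47.96% (SD, n = 5 labels), and thinning every cell to 40000 reads gave 44.3%. The share was 30.7% in C57BL6 (exact 95% interval 23.2 to 39.1%), 40.7% in the pool (22.4 to 61.2%), 41.7% in Acta2GFP (15.2 to 72.3%), 50% in Cspg4dsRED (24.7 to 75.3%) and 68.9% in PdgfrbGFP (57.1 to 79.2%). The intervals of C57BL6 and PdgfrbGFP did not overlap, but they treat the cells of a label as independent. Intervals cover counting error of cells only. They leave out differences between animals, plates and sorting, so they do not test a difference between strain labels. Low counts were common outside cluster 2, as 17.6% of the 187 mural cells and 32.3% of the 161 cells of cluster 1 held at least 1 Wif1 read, the latter never above 7.19 scaled counts.

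**Figure D2:**
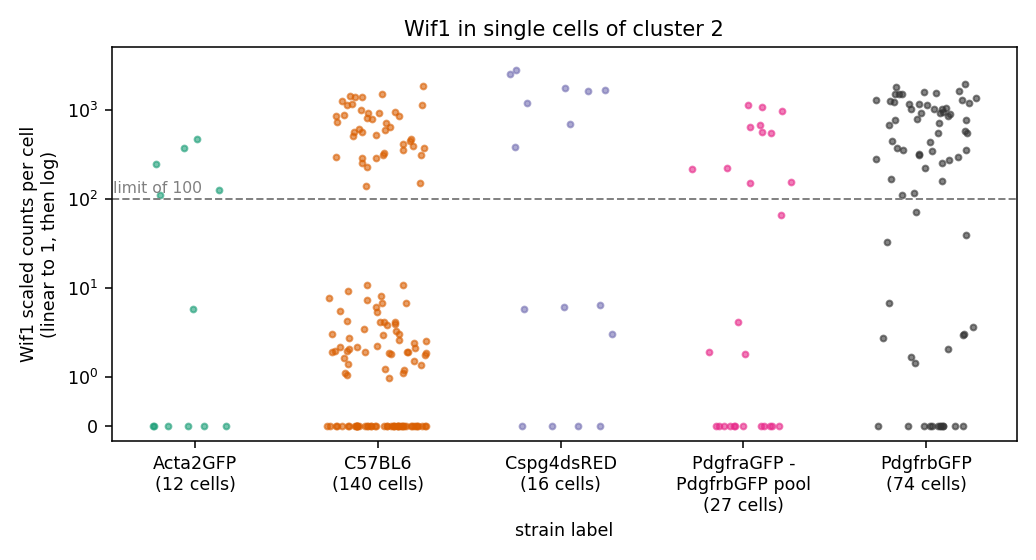
Wif1 in scaled counts (vertical axis, linear to 1 and logarithmic above) in each of the 269 cells of cluster 2 (points), by strain label, with the limit of 100 as a dashed line. Cells gather below 10 or above 100, and only 6 lie between.

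Of the secreted frizzled-related genes, Sfrp4 was found in the most cells (ENSMUSG00000021319, chromosome 13, 19623104 to 19632994), with a read in 69.1% of all cells. Its level in cluster 5 was 1371 in C57BL6, 1120 in the pool and 1652 in PdgfrbGFP, or 1381 ± 266 (SD, n = 3 labels). These labels gave 12, 3 and 16 cells of cluster 5, so every value of the pool there rests on 3 cells. Cluster 8 followed at 336 ± 150, cluster 1 at 293 ± 56.05 and cluster 4 at 151 ± 109 (SD, n = 4 labels each). Cluster 5 did not overlap with cluster 8 in any label, whereas clusters 8, 1 and 4 overlapped with each other in that order. Positive cells made up 93.75% ± 10.8 of cluster 5 (n = 3 labels), 45.7% ± 15.6 of cluster 1, 39.8% ± 9.82 of cluster 8 and 26.4% ± 7.33 of cluster 4 (n = 4 labels each).

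Sfrp2 (ENSMUSG00000027996, chromosome 3, 83766321 to 83774316) was also highest in cluster 5. There it reached 873 in C57BL6, 566 in the pool and 1301 in PdgfrbGFP. The value of the pool came almost wholly from 1 of its 3 cells, at 1690 scaled counts. The mean of 913 ± 369 (SD, n = 3 labels) was 5.80 times that of cluster 1, the next, at 157 ± 36.7 (n = 4 labels). Cluster 8 stood at 111 ± 50.8 (n = 4 labels) and cluster 2 at 62.8 ± 35.6 (n = 5 labels), and each overlapped with its neighbour. In the other 6 clusters the mean was 6.36 or less. Positive cells were few but strong, at 17 of 31 cells in cluster 5, with a median of 1822 among them, and 31 of 253 in cluster 8, where the highest cell held 7242. An opposite-strand gene, Gm26771, overlaps 16.1% of the exonic bases of Sfrp2, and whether reads were counted by strand was not stated, so part of these counts is uncertain.

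Sfrp1 (ENSMUSG00000031548, chromosome 8, 23411502 to 23449632) was highest in endomysial clusters 5, 8, 6 and 3. Cluster 1, also endomysial, held 13.1 scaled counts of it, near the 12.2 of cluster 10. In cluster 5 it stood at 349 in C57BL6, 83.5 in the pool and 142 in PdgfrbGFP, 191 ± 139 in all (SD, n = 3 labels). Clusters 8, 6 and 3 followed with 76.1 ± 63.1, 44.8 ± 48.5 and 33.9 ± 33.4 (SD, n = 4 labels each), and neighbours in this order overlapped. In 2 of the 3 labels that cover both, cluster 5 exceeded cluster 8. The highest level among the 5 labels of cluster 2 was 0.98, and 0 of its 269 cells were positive, which allows a share of up to 1.12%. In clusters 3, 5, 6 and 8 the highest label was C57BL6 each time, at 82.0, 349, 110.4 and 155, and Acta2GFP or Cspg4dsRED was the lowest where it was present.

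Sfrp5 and Frzb were rare. Sfrp5 (chromosome 19, 42197971 to 42202252, minus strand) had its highest level in cluster 6, with 288.6 in Cspg4dsRED, 16.8 in the pool, 0.12 in PdgfrbGFP and 0.03 in C57BL6. Only 4 of the 231 cells of cluster 6 were positive, 3 of Cspg4dsRED at 3038, 4290 and 5827 scaled counts and 1 of the pool at 892, and 1 cell of 1522 elsewhere was positive, in cluster 2 of C57BL6 at 665. At least 1 Sfrp5 read was found in 41.3% of the 46 Cspg4dsRED cells of cluster 6, in 43.0% of the 135 Cspg4dsRED cells of other clusters, none of which passed 19.6 scaled counts, and in 2.93% of the 1572 cells of other labels. The low reads thus followed the Cspg4dsRED label and not the cluster. The level of Cspg4dsRED in cluster 6 came almost wholly from its 3 positive cells. Frzb (chromosome 2, 80411970 to 80447625, minus strand) had a mean level of 8.07 or less in every cluster. Its 10 positive cells lay in clusters 6, 8 and 9, numbering 5, 3 and 2.

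Of the Dickkopf genes, Dkk2 (ENSMUSG00000028031, chromosome 3, 132085292 to 132180304) was highest in cluster 5. Its level was 547 in C57BL6, 595 in the pool and 739 in PdgfrbGFP, 627 ± 100.1 on average (SD, n = 3 labels), or 9.36 times that of cluster 1 at 67.04 ± 12.7 (n = 4 labels). No label of another cluster came near, as the highest was 78.8, in cluster 1. Clusters 8, 6, 3 and 2 lay between 27.8 and 42.9 and overlapped. Cluster 9 stood at 0.41 and mural cells at 0.73. In cluster 5, 25 of 31 cells were positive, against 35 of 161 in cluster 1 and 56 of 440 in cluster 3.

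Dkk3 (ENSMUSG00000030772, chromosome 7, 112116017 to 112159057, minus strand) was spread more widely. In cluster 2 it stood at 221 in Acta2GFP, 132 in C57BL6, 170 in Cspg4dsRED, 207 in the pool and 177 in PdgfrbGFP, 181 ± 34.5 in all (SD, n = 5 labels). Clusters 8, 5, 6, 4 and 9 held 107, 96.3, 81.04, 75.8 and 60.2, and neighbours in this order overlapped. Cluster 1, at 1.56, and cluster 3, at 3.63, were nearly without it. With the median of cells in place of the mean the first place passed from cluster 2 to cluster 4, at 80.95 against 48.4. It was also the only gene of the list with positive mural cells, at 8 of 187.

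Dact2 (ENSMUSG00000048826, chromosome 17, 14195052 to 14204304, minus strand) was highest in cluster 1, where Acta2GFP stood at 28.4, C57BL6 at 1.38, the pool at 107.6 and PdgfrbGFP at 92.4. The mean was 57.5 ± 50.7 (SD, n = 4 labels), and clusters 9 and 2 followed with 6.85 and 4.70. Positive cells numbered 20 of 53 in the pool and 19 of 70 in PdgfrbGFP but 0 of 31 in C57BL6, so that a share of up to 9.68% remains possible. The C57BL6 cells of this cluster thus lay apart, and all of them came from a single plate, so strain and plate cannot be told apart here. No count of Dact2 was found in the 31 cells of cluster 5.

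Lgr5 (ENSMUSG00000020140, chromosome 10, 115450311 to 115587780, minus strand) was read in 5.53% of all cells. It was highest in cluster 5, with 80.6 in C57BL6, 20.5 in the pool and 140.4 in PdgfrbGFP. The mean was 80.5 ± 59.96 (SD, n = 3 labels). The value of the pool came from 1 of its 3 cells, at 61.5 scaled counts. Cluster 4 followed at 21 ± 29.6 (n = 4 labels), with 62.7 in Acta2GFP, 21.3 in the pool and 0 in the others, and these ranges overlapped. Positive cells numbered 7 among the 31 cells of cluster 5 and 4 among the 60 of cluster 4.

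**Figure D3:**
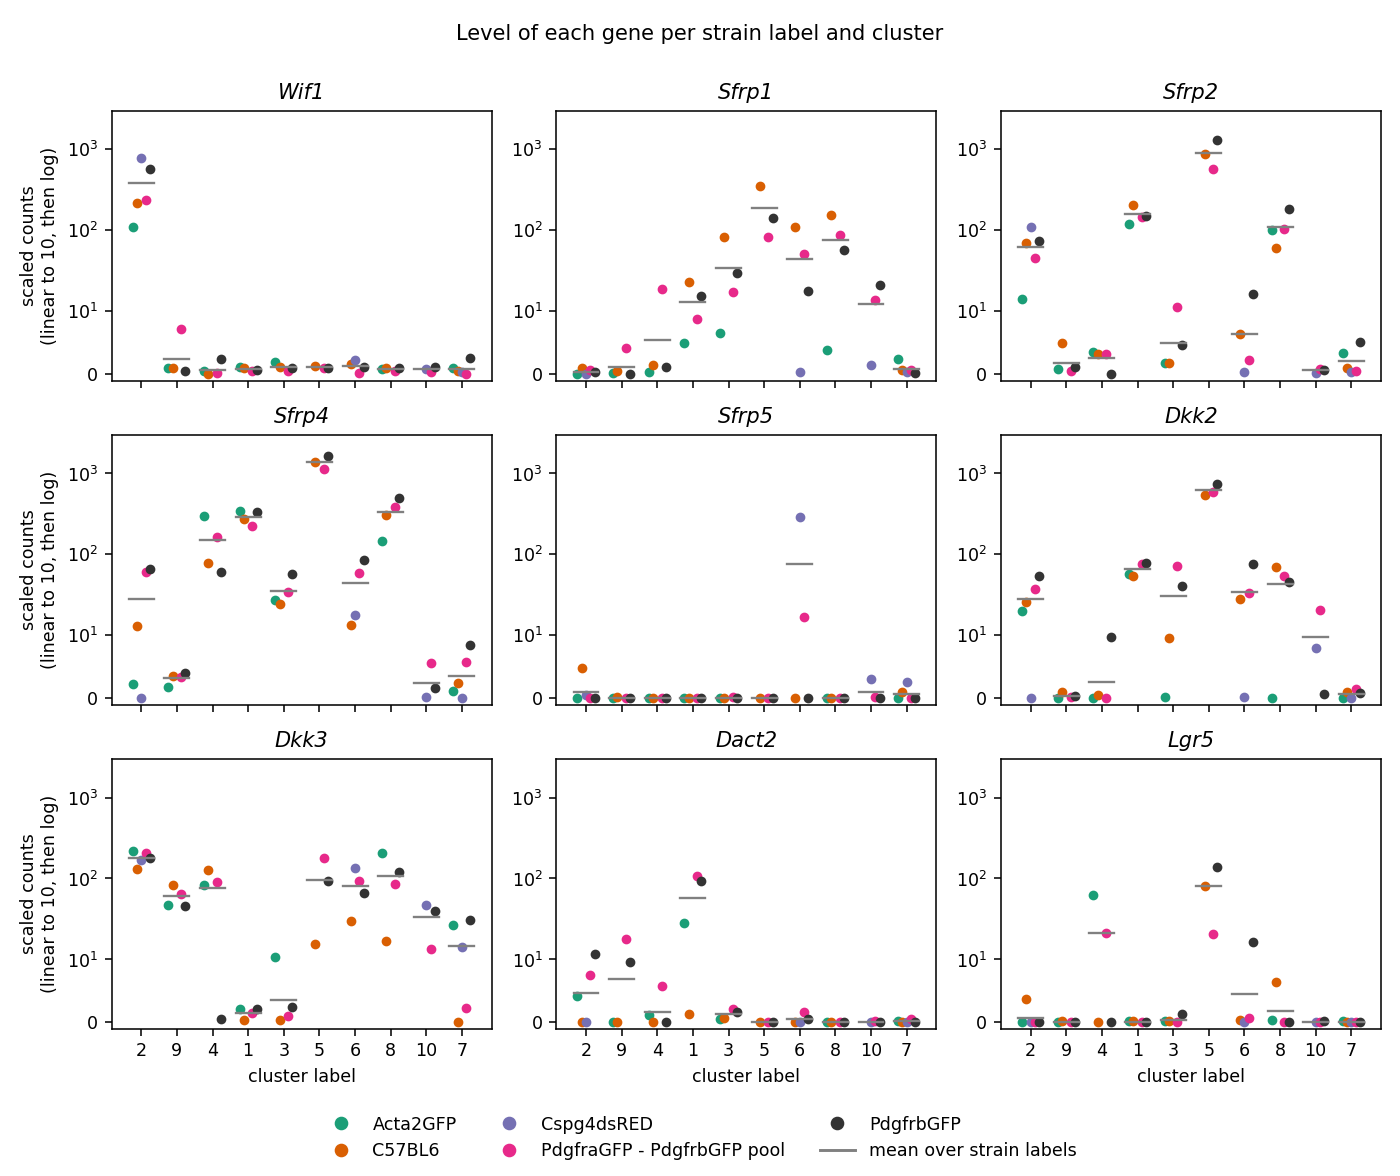
Levels in scaled counts (vertical axes, linear to 10 and logarithmic above) of 9 of the genes for each strain label (coloured points) and their mean (grey line), by cluster, with clusters in the order of the classes. Frzb is left out for its low level. The pool point of cluster 5 stands for 3 cells. For Sfrp2, Sfrp4 and Dkk2 all points of cluster 5 lie above all points of every other cluster, as do those of cluster 2 for Wif1.

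Per kilobase of exon, the scale on which levels can be compared between genes, cluster 5 held Sfrp2 at 424, Sfrp4 at 330, Dkk2 at 169, Sfrp1 at 43.8, Dkk3 at 28.7 and Lgr5 at 7.84 scaled counts. In cluster 2, Wif1 stood at 159, Dkk3 at 53.96 and Sfrp2 at 29.2, and in cluster 1, Sfrp2 at 73.1, Sfrp4 at 70.2, Dkk2 at 18.1 and Dact2 at 17 scaled counts per kilobase. Duplicate reads appear to have been removed by the authors, which caps a gene at 2 reads per exonic base. Of the highest cells, that of Sfrp2 reached 54.5% of this cap and those of Sfrp4 and Wif1 29.5% and 28.7%, so differences at the top may be compressed.

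The genes were also found together in single cells. Cluster 5, with 31 cells from 3 labels, had 3.35 positive genes per cell on average, and 23 of its cells (74.2%) had 3 or more. Clusters 1, 8 and 2 followed with means of 1.34, 1.2 and 1.06, and mural cells had 0.043. In cluster 5, 23 of 31 cells were positive for both Sfrp4 and Dkk2. Both Sfrp2 and Sfrp4 were positive in 16, and both Sfrp1 and Sfrp2 in 11. Spearman rho over the 31 cells was -0.03, 0.19 and 0.33 for these pairs. Sfrp4 was positive in 28 cells, Dkk2 in 25, and Sfrp1 and Sfrp2 in 17 each. Joint cells would thus be common even if the genes were unrelated. All 7 cells positive for Lgr5 there were positive for Sfrp2 and for Sfrp4. In cluster 2, 52 of the 269 cells were positive for both Wif1 and Dkk3, which is 44.1% of the Wif1-positive and 54.7% of the Dkk3-positive cells. The level of these genes over the cells was nearly unrelated (Spearman rho 0.08, 269 cells that share plates and depth). Of the 25 Dkk2-positive cells of cluster 2, 23 were positive for Wif1, and of the 30 Sfrp2-positive cells 25 were. Spearman rho with Wif1 over the 269 cells was low, at 0.18 for Dkk2 and 0.17 for Sfrp2. PdgfrbGFP, the label with the highest share of Wif1-positive cells, held 13 of these Dkk2-positive and 12 of these Sfrp2-positive cells.

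**Figure D4:**
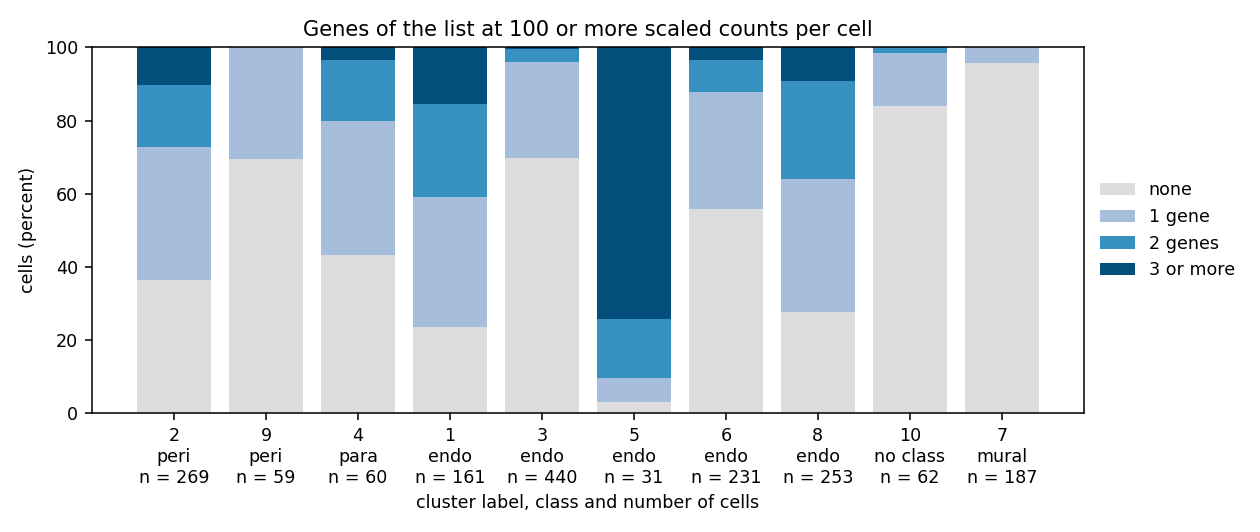
Share of cells (vertical axis, percent) of each cluster in which none, 1, 2 or at least 3 of the 10 genes reached 100 scaled counts (stacked bars). In cluster 5, 74.2% of cells had 3 or more, and in mural cells 95.7% had none.

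Perimysial and endomysial fibroblasts were compared next, to ask which modulators separate the connective tissue around fibre bundles from that around single fibres. Raw counts were summed by cluster and strain label and tested with edgeR's quasi-likelihood test with the strain label as a block, and differences are log2 values averaged over the clusters of a class. Of the 10 genes, 7 passed an adjusted p of 0.05, against 10.9% of the 16799 genes tested. Wif1 was higher in perimysial cells by 5.31 ± 0.48 (SE, adjusted p = 4.1e-10) and Dkk3 by 2.86 ± 0.54 (0.000255). Wif1 was high in cluster 2 alone, with 2.41 scaled counts in cluster 9 and at most 1.33 in an endomysial cluster. For Dkk3, cluster 9 at 60.2 lay below endomysial clusters 8, 5 and 6, at 107, 96.3 and 81.04. Only endomysial clusters 1 and 3, at 1.56 and 3.63, lay below both perimysial clusters. Lower were Sfrp1 by -6.19 ± 0.90 (5.3e-06), Sfrp4 by -4.54 ± 0.60 (9.1e-07), Dkk2 by -4.12 ± 0.89 (0.0013) and Sfrp2 by -2.03 ± 0.54 (0.0092). In cluster 2, however, Sfrp2 stood at 62.8 scaled counts, above the 4.93 and 6.36 of endomysial clusters 3 and 6. It lay below endomysial clusters 5, 1 and 8 alone. Dkk2 in cluster 2, at 27.8, overlapped over labels with clusters 3 and 6, at 30.3 and 34.6. Sfrp4 in cluster 2, at 28.2, did so as well, with 35.8 and 44.2 in clusters 3 and 6. Cluster 9 was lower, with Sfrp2 at 1.88, Dkk2 at 0.41 and Sfrp4 at 3.19. Dact2 was also called higher, by 3.10 ± 0.89 (0.0192), although cluster 1 of the endomysial class had the highest level of all. The endomysial average of logs includes cluster 5, with 0 counts of Dact2, and clusters 8 and 6, at 0.03 and 0.58 scaled counts. The fitted size thus depends on groups with few or 0 counts and is no bound. The call of Dact2 was lost without Acta2GFP, the pool or PdgfrbGFP (adjusted p = 0.056, 0.25 and 0.204), and so was that of Sfrp2 (0.0876, 0.109 and 0.0675). Lgr5, Frzb and Sfrp5 differed by -2.75 ± 1.30, 1.41 ± 1.13 and 0.39 ± 1.19 and were not called (adjusted p = 0.216, 0.58 and 0.978), though Lgr5 was by DESeq2 and in the fit on plates (0.0477 and 0.0485).

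The perimysial clusters differed from each other. Of the 10 genes, 4 were lower in cluster 9 than in cluster 2, against 0.816% of all genes called in either direction. They were Wif1 by -7.22 ± 0.99 (adjusted p = 4.5e-05, edgeR's quasi-likelihood test), Sfrp2 by -5.38 ± 0.96 (0.00135), Dkk2 by -6.85 ± 1.55 (0.0187) and Sfrp4 by -3.43 ± 0.87 (0.0497). In levels, Sfrp2 stood at 62.8 in cluster 2 and 1.88 in cluster 9. Dkk3 differed by -1.13 ± 0.93 and was not called (0.825), and Frzb, which DESeq2 called higher in cluster 9 (0.000372), missed the threshold with edgeR (0.088). The call of Dkk2 was lost without Acta2GFP, C57BL6, the pool or PdgfrbGFP (adjusted p = 0.0665, 0.139, 0.181 and 0.0504) and without the block (0.084). That of Sfrp4 was lost without the same labels (0.104, 0.141, 0.463 and 0.436), with cells weighted alike (0.104), without the block (0.0974) and without the filter on low counts (0.0505).

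Paramysial cells differed from endomysial cells in Sfrp2 alone among the 10, by -4.52 ± 0.86 (adjusted p = 0.00275, edgeR), against 1.44% of all genes called, and that call was lost without PdgfrbGFP (0.0515). Dkk2 stood at 2.57 scaled counts in cluster 4 and missed the threshold at -5.08 ± 1.37 (0.052). It passed with DESeq2 (0.000129), with the plate as the unit (0.00969), without the filter on low counts (0.0473) and without Cspg4dsRED or PdgfrbGFP (0.0302 and 0.0129). Dkk3, at 2.40 ± 0.73 (0.105), and Sfrp1, at -2.98 ± 1.06 (0.21), passed with DESeq2 (0.0112 and 0.0104). Sfrp4, at -1.10 ± 0.69, was not called (0.59).

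Cluster 10 and mural cells were poor in these genes, but perimysial cluster 9 was as poor as mural cells in Sfrp2, Sfrp4 and Dkk2. Sfrp2 stood at 0.62, 2.08 and 1.88 scaled counts in cluster 10, mural cells and cluster 9. In the same order Sfrp4 stood at 2.49, 3.60 and 3.19, and Dkk2 at 9.67, 0.73 and 0.41. In cluster 10, Sfrp2 and Sfrp4 were lower than in endomysial cells, by -6.31 ± 1.13 and -6.54 ± 1.14 (adjusted p = 0.000407 and 0.000293, edgeR), against 3.79% of all genes called. The study described cluster 10 as a fibroblast subtype with Cspg4, Pdgfra and Ngfr, lying along the margin of nerve fibres. These 3 markers summed to 863 there (514 to 1341 over labels) and to at most 539 elsewhere, in cluster 6 (383 to 754). These ranges overlapped. Schwann cell markers summed to 152 and cartilage markers to 417 scaled counts in cluster 10, against at most 9.29 and 68.6 elsewhere. Their part in the lower Sfrp2 and Sfrp4 was not tested. In mural cells, Sfrp2, Dkk2 and Sfrp4 were lower than in the mean of the fibroblast clusters, by -3.06 ± 0.69, -5.10 ± 1.22 and -4.19 ± 0.75 (adjusted p = 0.00113, 0.002 and 5.5e-05), against 19.8% of all genes called. Dkk3 differed by -1.70 ± 0.76 and was not called (0.12), but was called by DESeq2, with the plate as the unit and without PdgfrbGFP (0.0296, 0.0461 and 0.0331), and Lgr5, at -3.37 ± 1.77 (0.206), was called by DESeq2 (0.0326). Sfrp1, at -1.48 ± 1.00 (0.36), was called without the block and without Acta2GFP (0.0156 and 0.0314).

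Each of 4 endomysial clusters was also set against the other endomysial clusters. Cluster 5 was not among these tests, and its levels above stand as a description. In cluster 1, against 1.74% of all genes called, Dact2 was higher by a fitted 8.47 (adjusted p = 4.5e-05, edgeR's quasi-likelihood test). This size is again no bound, given the few or 0 counts in clusters 5, 6 and 8. Sfrp2 was higher by 2.30 ± 0.57 (0.0275), and Dkk3 was lower by -4.25 ± 1.01 (0.0179). The call of Dact2 held under every alternative run. That of Sfrp2 was lost without Acta2GFP, C57BL6, the pool or PdgfrbGFP (0.198, 0.153, 0.0752 and 0.0686) and with cells weighted alike (0.0568), and that of Dkk3 without Acta2GFP, the pool or PdgfrbGFP (0.103, 0.155 and 0.0851).

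In cluster 3, against 0.893% of all genes called, Sfrp2 was lower by -4.39 ± 0.84, Dkk3 by -4.14 ± 1.01 and Sfrp4 by -3.41 ± 0.80 (adjusted p = 0.00451, 0.0359 and 0.0266, edgeR). None of these held when every label was left out in turn. Sfrp2 was lost without C57BL6 or PdgfrbGFP (0.0517 and 0.0919), Dkk3 without Acta2GFP, the pool or PdgfrbGFP (0.0823, 0.404 and 0.125) and with cells weighted alike (0.0566), and Sfrp4 without Acta2GFP, C57BL6, the pool or PdgfrbGFP (0.0974, 0.13, 0.191 and 0.207) and without the block (0.108).

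In cluster 6, against 1.75% of all genes called, Sfrp5 and Frzb were higher by a fitted 7.02 and 6.72 and Sfrp2 was lower by -4.00 ± 0.83 (adjusted p = 0.0149, 0.0082 and 0.0057, edgeR). Sfrp5 rested on the 4 positive cells given above. Its call was lost in the fit on plates (0.173) and without Cspg4dsRED or the pool (0.0758 and 0.906). The call of Frzb was lost without the pool or PdgfrbGFP (0.144 and 0.198) and without the block (0.123), and that of Sfrp2 without the pool (0.0767). Sfrp4, at -1.60 ± 0.95 (0.70), was called without Cspg4dsRED (0.0402). Dkk3 missed the threshold at 2.49 ± 0.72 (0.069) and passed with DESeq2, the plate as the unit, cells weighted alike and without the block (0.0377, 0.00587, 0.0474 and 0.0361). In cluster 8, against 1.26% of all genes called, Dkk3 was higher by 2.75 ± 0.67 (0.0272), a call lost without Acta2GFP, the pool or PdgfrbGFP (0.0923, 0.154 and 0.153). DESeq2 also called Dact2 lower there (0.00505).

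**Figure D5:**
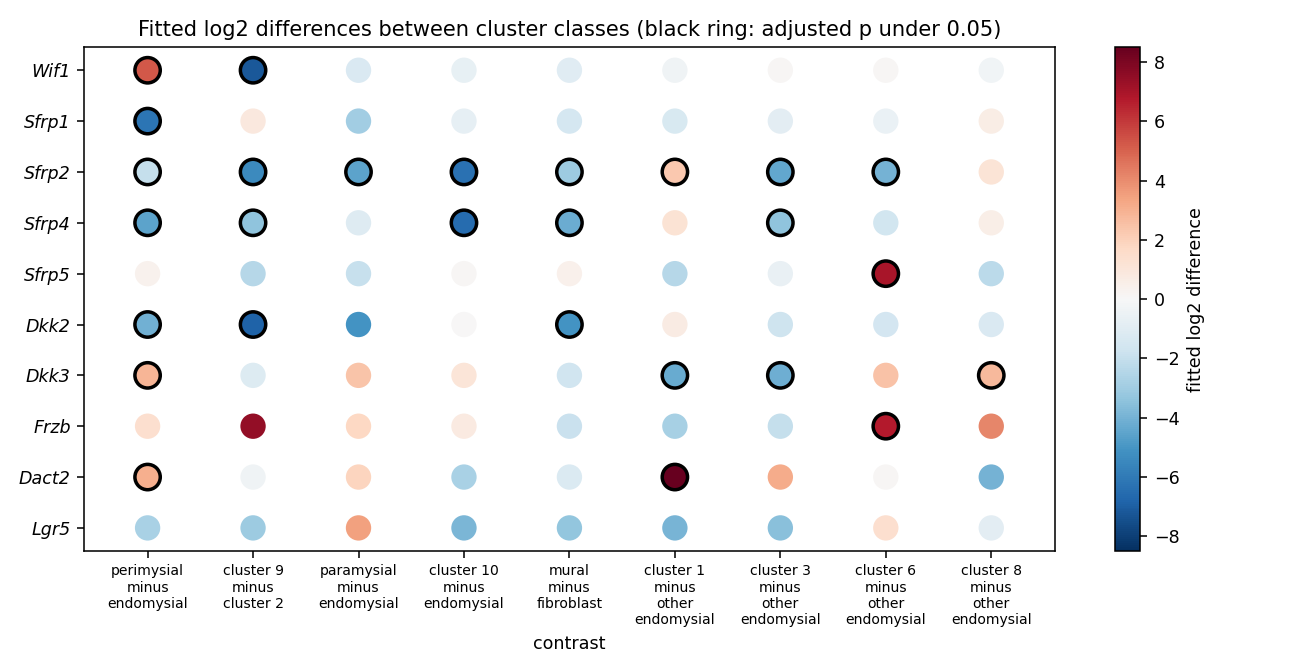
Fitted log2 differences (colour) of the 10 genes (rows) in 9 contrasts between cluster classes (columns), where a black ring marks an adjusted p under 0.05 by edgeR's quasi-likelihood test. Sfrp2 is ringed in 8 contrasts and Lgr5 in none, and the fitted size for Dact2, Frzb and Sfrp5 depends on groups with few or 0 counts.

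Calf muscles, the slow soleus and the faster gastrocnemius, had been kept apart in the pool and in part of PdgfrbGFP. No gene of the 16337 tested in endomysial cells was called by edgeR (0%), and 807 had an unadjusted p under 0.05, with 9 of the 10 modulators tested. Dkk2 stood at 104.5 in gastrocnemius and 5.50 in soleus of the pool and at 94.2 and 7.59 in PdgfrbGFP. It was lower in soleus in both labels, by -3.94 ± 0.50 (unadjusted p = 0.00108, adjusted p = 0.967). Within cluster 3 alone, gastrocnemius and soleus cells held 99.9 and 0.023 in the pool, and PdgfrbGFP showed 47.5 and 8.37. Sfrp2 stood at 58.4 and 30.5 in the pool and at 367 and 7.02 in PdgfrbGFP, with an unadjusted p of 0.0362. Sfrp4 was level in the pool, at 117 and 119, but not in PdgfrbGFP, at 620 and 120. The make-up of the class differed as well, since the soleus cells held 0 cells of cluster 5 in both labels and 0 of cluster 1 in PdgfrbGFP, and plates divided the muscles of the pool. In cluster 2, Wif1-positive cells numbered 13 of 18 in gastrocnemius and 0 of 7 in soleus of PdgfrbGFP, which allows a share of up to 42.9% there, but 8 of 19 and 3 of 8 in the pool. This difference was not tested.

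Other genes of the pathway were counted from lists. In the perimysial against endomysial contrast, with the 10.9% of all genes above, 4 of 17 tested receptors and co-receptors were called, all higher, with a median log2 difference of 0.85 over the list against 0.01 over all genes. Fzd6, a Frizzled receptor, was higher by 6.64 ± 1.11, and Ptk7, a co-receptor of the non-canonical branch, by 6.33 ± 1.12, although the level of Fzd6 was only 3.64 and 4.55 scaled counts in clusters 2 and 9. Frizzled receptors Fzd5 and Fzd1 were higher by 3.43 ± 0.88 and 2.61 ± 0.47, and Fzd1 stood at 134 and 153 in clusters 2 and 9 and at most 46.7 in the endomysial clusters. Of 8 ligands tested, 3 were called. Wnt2 was lower by -6.07 ± 1.2, standing at 26.3 and 22.6 in clusters 1 and 5 and at 0.12 in cluster 2. Wnt5b was also lower, by a fitted -7.90, with 0 counts in cluster 9, and Wnt9a was higher by 2.40 ± 0.75, although its level in cluster 6, at 29.9, exceeded the 26.6 of cluster 2.

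Among 3 tested feedback targets of canonical signalling, Axin2 and Nkd2 were called higher, by 4.45 ± 0.90 and 3.66 ± 0.60 (adjusted p = 0.000558 and 2.9e-05). Axin2 stood at 29.9 in cluster 2, 4.93 in cluster 9 and at most 4.11 in the endomysial clusters, and Nkd2 at 78.3, 130.2 and at most 22.7. Of the 5 other antagonists tested, Shisa2, which retains Frizzled receptors inside the cell, was higher by 6.77 ± 0.95, again with 0 counts in cluster 5, although its level was 18.3 in endomysial cluster 6 against 10.95 in cluster 2 and 24.99 in cluster 9. Igfbp4 was lower by -0.88 ± 0.16. Of 7 genes of the R-spondin axis Rspo4 alone was called, higher by 4.76 ± 0.99 at a level of 5.42 or less. Of 7 genes for Wnt release and carriage, Gpc3, a glypican, was lower by -4.35 ± 0.60 and Wls, which carries Wnt proteins to the surface, higher by 0.54 ± 0.17. Of 13 intracellular regulators, Dact1 and Tcf7l1 were lower, by -2.96 ± 0.70 and -2.34 ± 0.62, and Ctnnb1, which encodes β-catenin, higher by 0.58 ± 0.16. The lists' medians were -1.85 for ligands, 3.66 for feedback targets, -0.88 for other antagonists, -0.26 for the R-spondin axis, 0.08 for release and carriage and -0.20 for intracellular regulators, against -0.82 for the 10 modulators. The lists held 19, 4, 11, 8, 7 and 13 genes in that order, and that of receptors 18, and all but 1 antagonist, which had no row in the table, of those not tested were too low for the filter.

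The other contrasts called genes of these lists as well. In cluster 1, where 1.74% of all genes were called, the canonical ligand Wnt10b was called of 8 ligands, higher by a fitted 7.54, and Igfbp4 of 5 other antagonists, higher by 0.76 ± 0.20. Cluster 3, with 0.893% of all genes called, had a lower Gpc6, by -2.97 ± 0.72, of 7 genes for release and carriage. In cluster 6, with 1.75% of all genes called, Rspo3 was higher by 6.49 ± 1.19, of 7 genes of the R-spondin axis. Shisa2 was higher there by 7.31 ± 1.24 and Igfbp4 lower by -1.32 ± 0.23, of 5 other antagonists, and Ctnnb1 was higher by 1.12 ± 0.23, of 13 intracellular regulators. In cluster 8, with 1.26% of all genes called, Rspo1 and Rspo2, which enhance Wnt signalling through Lgr receptors, were higher by 8.55 ± 1.25 and 6.28 ± 1.54. Shisa2 and Igfbp4 were also higher there, by 4.98 ± 1.25 and 0.83 ± 0.20. Shisa2 stood at only 3.08 scaled counts in cluster 8, however, below the 18.3 of cluster 6, and at 0 in cluster 5. Its fitted size is an average of logs that includes such low clusters. Paramysial cells, with 1.44% of all genes called, were higher in Sulf2 by 1.72 ± 0.44.

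Cluster 10 and mural cells had more such calls, at 7 and 10 genes, beside 3.79% and 19.8% of all genes. In cluster 10, Nkd2, Gpc3, Shisa2 and Shisa3 were higher by 4.12 ± 0.86, 3.45 ± 0.66, 4.54 ± 1.17 and 7.27 ± 0.95, and the receptor Fzd9 by a fitted 8.04. Shisa2 stood at 7.93 scaled counts there, below the 18.3 of endomysial cluster 6. Gpc6 was lower by -6.69 ± 1.09 and Wnt2, with a mean level of 0, by a fitted -10.75. In mural cells, Lgr6, a relative of Lgr5, was higher by 8.19 ± 1.06, and Nkd1, Wnt4, Ror1, Fzd9 and Tcf7 by 5.76 ± 0.58, 3.93 ± 1.01, 3.22 ± 1.00, 8.32 ± 1.52 and 8.45 ± 1.40. Nkd2, Fzd1, Ror2 and Sulf1 were lower, by -4.45 ± 1.02, -3.65 ± 0.79, -6.04 ± 1.71 and -3.16 ± 0.44.

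The genes most like each modulator over the 40 sums of cluster and strain label were found by Pearson's r of log2 CPM, as a description. S100a5, Uts2r and Chst5 came closest to Wif1, at 0.90, 0.88 and 0.85. Ly6c1, Ifi205 and Dpt came closest to Sfrp4, at 0.86, 0.85 and 0.82, and Ifi207 and Nova1 to Sfrp1, at 0.87 and 0.85. Gm26771, the overlapping gene, followed Sfrp2 at 0.99. The nearest genes of the other 6 lay at 0.74 or less, with Rhou for Dkk2, Comp for Dkk3, B230344G16Rik for Sfrp5, Krt80 for Dact2, Pappa2 for Lgr5 and AI115009 for Frzb. Among the modulators, r was 0.62 to 0.64 between Sfrp4 and each of Sfrp1, Sfrp2 and Dkk2, and -0.41 between Wif1 and Sfrp1.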

How the data were processed

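Single cells had been sorted into plates and sequenced by Smart-seq2, a full-length method without molecular identifiers, as single reads of 50 bases. The authors aligned the reads to GRCm38 with TopHat2, removed what they call doublets with samtools, taken here to mean duplicate reads, and deposited raw counts per gene from featureCounts; the annotation release and the use of strand are not given in the sources used here. The authors had also dropped cells by limits on counts and genes and had made the clusters with pagoda2 from these counts. 1 column matched no labelled cell and was not used. The 92 spike-in rows held 1.31% of counts and entered no library size.

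Counts were scaled to 500000 per cell for levels. For tests, raw counts were summed by cluster and strain label with at least 3 cells, giving 40 sums, and fitted in edgeR 4.0.16 (R 4.3.3) by the quasi-likelihood test with TMM factors, filterByExpr by cluster and the strain label as a block, with Benjamini-Hochberg adjustment over all genes. The script was tested on simulated data. Alternatives were DESeq2 1.42.0, RLE factors, no filter, no block, the plate as the unit, cells weighted alike and leaving out each label. Residuals of sums that share a label had a median correlation of 0.060 (153 pairs) and those of other labels -0.022 (627 pairs). The modulators, the gene lists, the pathway genes named (those called in a list) and the nearest genes (the 3 highest r) were chosen with earlier results of these data known. Exact intervals are Clopper-Pearson at 95%, and an upper limit for 0 cells is 3 cells of the total. Intervals and limits cover counting error only. Of the lists, 1 antagonist had no matching row.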

Additional observations from a re-analysis of the deposited data

Results flagged for a closer look

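The level of Sfrp5 in cluster 6 was 288.6 scaled counts in Cspg4dsRED, far from the 3 other labels of that cluster, by Dixon's gap test over 4 labels. Of 28 groups of labels tested this was the 1 to stand out, and chance alone gives about 1 in 20. At that rate, 1 flag among 28 groups is no more than chance would give. Groups averaging below 10 were left untested. This group passed that limit only through the flagged value, as its other labels stood at 16.8, 0.12 and 0.03. The test therefore cannot show that the label differs. The level of Cspg4dsRED came almost wholly from 3 cells, at 5827, 4290 and 3038 scaled counts.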

How the results depend on the processing

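No called difference of a modulator changed direction under the alternatives run, and of their alternative values 249 stayed past the threshold and 48 did not. The number of genes called was, with DESeq2, 619 between clusters 9 and 2, 865 for paramysial cells, 1855 for cluster 10, and 726, 310, 619 and 398 for clusters 1, 3, 6 and 8. With the plate as the unit it was 149 for paramysial cells and 483, 309, 461 and 414 for clusters 1, 3, 6 and 8. Without the replicate block it was 425 for paramysial cells, 984 for cluster 10 and 363 for cluster 8, and 2 modulators in place of 4 were called between clusters 9 and 2. Modulators called numbered 4 with DESeq2, 2 with the plate as the unit and 2 without the filter on low counts for paramysial cells, and 5 for mural cells and 2 for cluster 8 with DESeq2. The cause of these shifts was not tested. Leaving out each label in turn, the genes called ranged from 39 to 119 between clusters 9 and 2, 99 to 284 for paramysial cells, 254 to 753 for cluster 10, and 91 to 324, 18 to 173, 91 to 233 and 47 to 235 for clusters 1, 3, 6 and 8. Without the pool the genes called numbered 63 between clusters 9 and 2, 146 for paramysial cells and 393 for cluster 10, and without PdgfrbGFP 26 for cluster 3 and 59 for cluster 8, and without C57BL6 107 for cluster 6. With each label left out in turn, the modulators called ranged from 2 to 4 between clusters 9 and 2, 1 to 2 for paramysial cells, and 1 to 3, 0 to 3, 0 to 3 and 0 to 1 for clusters 1, 3, 6 and 8. With RLE factors the median difference of all genes moved from -0.19 to -0.07 for paramysial cells and from -0.11 to -0.01 for cluster 10. Depth was 121646 counts per cell at the median in Cspg4dsRED, the lowest of the 5 labels, and thinning all cells to 40000 reads moved the mean share of Wif1-positive cells in cluster 2 from 46.4% to 44.3%.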
